A study of Mus musculus with 2 samples.

Results

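The cells described here are 288 neutrophils chosen by their UMIs (unique molecules) of Mmp9, Cd177 and Il1r2, at least 2 in sum, found among 2389 neutrophils and 18189 kept cells of RENCA kidney tumours. Of them, 168 came from the library labelled SMYD3 knockdown and 120 from the library labelled WT. RENCA is a mouse kidney cancer line of BALB/c origin. RENCA cells with SMYD3 knocked down, or control RENCA cells, had been grafted into the kidney of BALB/c mice, so the knockdown was made in the grafted cells and not in the host's neutrophils. SMYD3 is a lysine methyltransferase. Per the series' design text, CD45+ cells (leukocytes) had been sorted from the tumours, but the cell type tag of both samples reads epithelial. The labels give neither the age of the mice nor the number of tumours per library, nor the agent or clone behind the knockdown. Each label was represented by 1 library, so no test between the labels was possible. All intervals are 95% intervals that cover counting error only, exact except for the differences of shares.

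A neutrophil gate was first set on each kept cell (at least 500 UMIs, at least 200 genes and at most 20% mitochondrial UMIs). In the gate, the summed UMIs of S100a8, S100a9, G0s2, Retnlg, Cxcr2 and Csf3r made up at least 1% of a cell's UMIs, Csf1r was at 0, and C1qa, C1qb and C1qc summed to at most 5 UMIs. Within the gate, the Mmp9 Cd177 Il1r2 neutrophils had at most 2 Retnlg UMIs, at most 1 UMI over Cd274, Hcar2 and Gadd45b, and at least 2 UMIs over Mmp9, Cd177 and Il1r2. These are absolute UMI limits, so a cell's depth bears on its class. The limits left 3 other classes in the gate. They were few-marker neutrophils (at most 1 UMI of the 3 genes, 133 cells in the knockdown-labelled library and 88 in the WT-labelled library), neutrophils above the Cd274, Hcar2 and Gadd45b limit (729 and 422 cells) and Retnlg-high neutrophils (514 and 215 cells). Because the classes were cut from the measured values, every difference between the Mmp9 Cd177 Il1r2 neutrophils and the other gate neutrophils is a description, with no test.

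Neutrophils are short-lived phagocytes released from the bone marrow, where their granules are filled in sequence during maturation. Mmp9 encodes gelatinase B, a matrix protease of the tertiary granules. Cd177 is a surface glycoprotein that binds PECAM-1 and is carried by neutrophils. Il1r2 is the decoy receptor of interleukin-1, which binds the cytokine without passing on a signal. Of the further markers given for these cells, Ceacam10 is a secreted member of the carcinoembryonic antigen family, and Ltb encodes lymphotoxin beta, a membrane-bound ligand of the TNF family.

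The markers Cd177 and Ceacam10 lie side by side on mouse chromosome 7 (GRCm38). Cd177 (ENSMUSG00000052212) is on the minus strand at chr7:24743983-24760311 and Ceacam10 (ENSMUSG00000054169) on the plus strand at chr7:24777206-24784657 in GENCODE vM21, with 16894 bases and no annotated gene between them. Their upstream sequences are shown because cells with a Cd177 UMI held more Ceacam10, as described further on. In the other gate neutrophils, cells with an Mmp9 or Il1r2 UMI held more of it as well. RefSeq's promoter table (GRCm38.p6) held an entry for 4 of the 5 markers, all but Mmp9. The 250 bases before a transcription start of that table are given here 5′ to 3′ on each gene's strand, chr7:24760312-24760561 for Cd177 and chr7:24776917-24777166 for Ceacam10, with motif matches in capitals. That table held 2 windows for Ceacam10, of which only the first is shown.
Cd177: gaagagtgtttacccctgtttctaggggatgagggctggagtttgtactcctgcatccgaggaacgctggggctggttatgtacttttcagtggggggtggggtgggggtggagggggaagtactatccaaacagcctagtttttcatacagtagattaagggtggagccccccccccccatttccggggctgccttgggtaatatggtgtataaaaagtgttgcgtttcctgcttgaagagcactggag
Ceacam10: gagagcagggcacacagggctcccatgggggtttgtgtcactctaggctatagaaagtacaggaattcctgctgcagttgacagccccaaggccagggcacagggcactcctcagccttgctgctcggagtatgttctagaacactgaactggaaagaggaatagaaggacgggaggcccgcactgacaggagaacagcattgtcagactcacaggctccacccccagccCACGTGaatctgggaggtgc
The 3 motifs picked for this report were searched on both strands, the C/EBP-type TTGCNNAA, the PU.1-type GAGGAAG and the E-box CACGTG. The Ceacam10 window shown held 1 CACGTG and neither window shown held another match. CACGTG was present in 6.02% of all 32851 upstream windows of that length, TTGCNNAA in 9.56% and GAGGAAG in 10.6%. A match is a description of the letters and not of binding. The other markers were Mmp9 on chr2:164940780-164955850, Il1r2 on chr1:40074079-40125231 and Ltb on chr17:35194439-35196320, all on the plus strand.

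The knockdown-labelled library held 10186 barcodes and 95803321 UMIs and the WT-labelled library 9265 barcodes and 91523767 UMIs, of which 9507 and 8682 barcodes were kept. The libraries shared 22 barcode sequences, none of them among the Mmp9 Cd177 Il1r2 neutrophils. The targeted gene, Smyd3, did not separate the labels in kept cells, with 10.0 CPM (UMIs per 1000000 UMIs of the class, interval 9.40 to 10.7) in the knockdown-labelled library against 9.31 CPM (8.69 to 9.95) in the WT-labelled library. In kept cells with at least 3 UMIs of Epcam, Krt8 and Krt18, a set picked here as a rough view of epithelial cells, it was at 12.7 CPM (8.91 to 17.4) against 12 CPM (8.75 to 16). Whether those were grafted cells was not tested. The Mmp9 Cd177 Il1r2 neutrophils held 1 Smyd3 UMI in the knockdown-labelled library and 0 in the WT-labelled library, so Smyd3 could not be compared there.

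Fixed neutrophil markers are described first, within the gate's rule and outside it. S100a9, which encodes a subunit of calprotectin, was found in 96.4% of them in the knockdown-labelled library and 99.2% in the WT-labelled library. S100a8, the other calprotectin subunit, was found in 95.2% and 95%. Csf3r, the receptor for G-CSF, was found in 77.4% and 71.7%, and Cxcr2, the receptor for CXCL1 and CXCL2, in 67.9% and 72.5%. Those 4 genes were part of the gate, so finding them is no check of the label. Outside the rule, Mmp8, the neutrophil collagenase, had 72 and 47 UMIs, while Ly6g, the classical mouse neutrophil surface marker, was nearly undetected at 0 and 2 UMIs. Ly6g was low in the other gate neutrophils as well (41.4 and 16.8 CPM) and reached 88.1 and 48.2 CPM in the Retnlg-high class.

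Transcripts of most other cell types were few in these cells, apart from those of dendritic cells, of macrophages and of the pancreas. The NK cell list and the mast cell and basophil list had 0 UMIs in both libraries. The T cell list had 9 UMIs in the knockdown-labelled library and 1 in the WT-labelled library, with 8 of 9 genes at 0 in each. The B cell list had 7 and 0 UMIs, the eosinophil list 7 and 4, the tumour cell list 21 and 10, the fibroblast and endothelial list 0 and 2, and the red cell list 0 and 1. The tumour cell list was thus at 93.7 and 61.8 CPM, against 31.7 and 27.7 CPM in the other gate neutrophils. The dendritic cell list had 69 and 60 UMIs, with 7 of 11 genes at 0 in each library. It was at 308 and 371 CPM, against 393 and 355 CPM in the other gate neutrophils. The monocyte and macrophage list, by contrast, summed to 656 UMIs (2926 CPM) in the knockdown-labelled library and 634 UMIs (3918 CPM) in the WT-labelled library. The other gate neutrophils had 2857 and 3714 CPM of the same list. That list held genes limited by the gate, among them the C1q genes. Its 8 genes outside the rule had 378 UMIs (1686 CPM) and 368 UMIs (2274 CPM) in the Mmp9 Cd177 Il1r2 neutrophils. They were at 2188 and 2695 CPM in the few-marker class and 1780 and 2306 CPM in the Cd274 Hcar2 Gadd45b class. In the Retnlg-high class they were at 1486 and 1922 CPM. At least 1 C1q UMI was found in 76.8% and 89.2% of the Mmp9 Cd177 Il1r2 neutrophils, and in 83.1% and 87.4% of the other gate neutrophils. The pancreatic secretion list had 669 UMIs in the knockdown-labelled library and 3 in the WT-labelled library. An alternative limited to cells with no C1q UMI is given further on. Beyond it, the part of these transcripts in the results was not tested.

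The Mmp9 Cd177 Il1r2 neutrophils were a smaller share of the neutrophil gate in the knockdown-labelled library, at 10.9% (9.37 to 12.5), than in the WT-labelled library, at 14.2% (11.9 to 16.7). The difference was -3.32 percentage points (-6.23 to -0.576). As a share of all kept cells the order was the opposite, with 1.77% (1.51 to 2.05) in the knockdown-labelled library and 1.38% (1.15 to 1.65) in the WT-labelled library, a difference of 0.385 points (0.0212 to 0.748). The gate itself held 16.2% of kept cells in the knockdown-labelled library and 9.73% in the WT-labelled library, and within it the Retnlg-high class took 33.3% against 25.4%. With the Retnlg-high class left out of the gate, the shares were 16.3% and 19.0%, and the interval of the difference (-6.62 to 0.996 points) included 0. Set only against the few-marker neutrophils, from which the marker limit alone separated them, they made up 55.8% and 57.7% of both classes together, a difference of -1.88 points (-10.5 to 6.86). The spread between mice is unknown, so these differences describe a pair of libraries and not the effect of a knockdown.

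**Figure D1:**
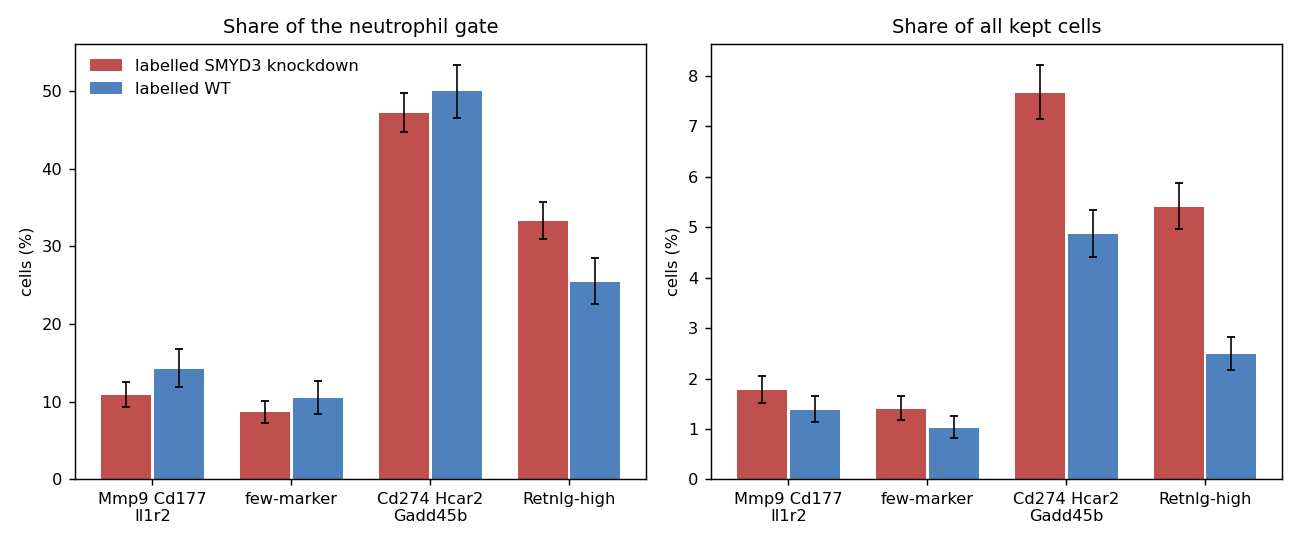
Shares of the 4 neutrophil classes in the neutrophil gate (left panel) and among all kept cells (right panel), in percent, for the library labelled SMYD3 knockdown (red) and the library labelled WT (blue). Bars show the share and lines its exact 95% Clopper-Pearson interval. The Mmp9 Cd177 Il1r2 class is at 10.9% and 14.2% of the gate but at 1.77% and 1.38% of kept cells.

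The 3 marker genes did not contribute equally to the choice of cells. At least 1 Il1r2 UMI was found in 148 of the 168 cells of the knockdown-labelled library and 100 of the 120 of the WT-labelled library, at least 1 Mmp9 UMI in 92 and 67, and at least 1 Cd177 UMI in 75 and 57. All 3 genes were found together in 29 cells (17.3%) and 17 cells (14.2%). Il1r2 was the only one of the 3 found in 43 and 24 cells, against 5 and 4 cells with Mmp9 only and 2 and 5 cells with Cd177 only. The median cell had 3 UMIs over the 3 genes in each library, and the highest sum was 13 and 12 UMIs. A sum of exactly 2, the lowest that the rule admits, was found in 51 and 34 cells.

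Levels of the 3 marker genes are given as the values that chose the cells. Mmp9 was at 696 CPM (591 to 814) in the Mmp9 Cd177 Il1r2 neutrophils of the knockdown-labelled library and 841 CPM (705 to 994) in those of the WT-labelled library, against 222 and 289 CPM in the other gate neutrophils. Cd177 was at 633 CPM (534 to 747) and 729 CPM (604 to 873), against 337 and 324 CPM. Il1r2 was at 1637 CPM (1474 to 1814) and 1310 CPM (1140 to 1499), against 654 and 660 CPM. All 3 genes were lowest in the few-marker class, which was limited to 1 UMI over them. The Retnlg-high class came next below the Mmp9 Cd177 Il1r2 neutrophils for Mmp9, with 306 CPM (271 to 344) and 434 CPM (368 to 508), and for Cd177, with 434 CPM (392 to 479) and 394 CPM (331 to 465). For Il1r2, the Retnlg-high class (676 and 675 CPM) and the Cd274 Hcar2 Gadd45b class (702 and 738 CPM) had overlapping intervals.

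Ceacam10 and Ltb were not used by the rule, although they were proposed from these cells and are not independent of them. Ceacam10 had 75 UMIs in the Mmp9 Cd177 Il1r2 neutrophils of the knockdown-labelled library, or 335 CPM (263 to 419), and 50 UMIs, or 309 CPM (229 to 407), in those of the WT-labelled library. The other gate neutrophils had 193 CPM (175 to 213) and 196 CPM (170 to 225), giving ratios of 1.73 and 1.58. Ltb was at 696 CPM (591 to 814) and 964 CPM (819 to 1128), against 498 CPM (468 to 530) and 590 CPM (543 to 639) in the other gate neutrophils, ratios of 1.40 and 1.64. Both genes were higher in these cells than in the rest of the gate in both libraries, by less than the genes of the rule. Next in the knockdown-labelled library came the Retnlg-high class, with 237 CPM (206 to 271) of Ceacam10 and 528 CPM (482 to 578) of Ltb. In the WT-labelled library, Ceacam10 was next at 207 CPM (171 to 248) in the Cd274 Hcar2 Gadd45b class. Ltb was next there at 667 CPM (521 to 841) in the few-marker class. All but the Ltb interval of the knockdown-labelled library overlapped those of the Mmp9 Cd177 Il1r2 neutrophils. Reads of Ceacam10 may have been shared with close members of its gene family, and their counting is not described in the sources used here.

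**Figure D2:**
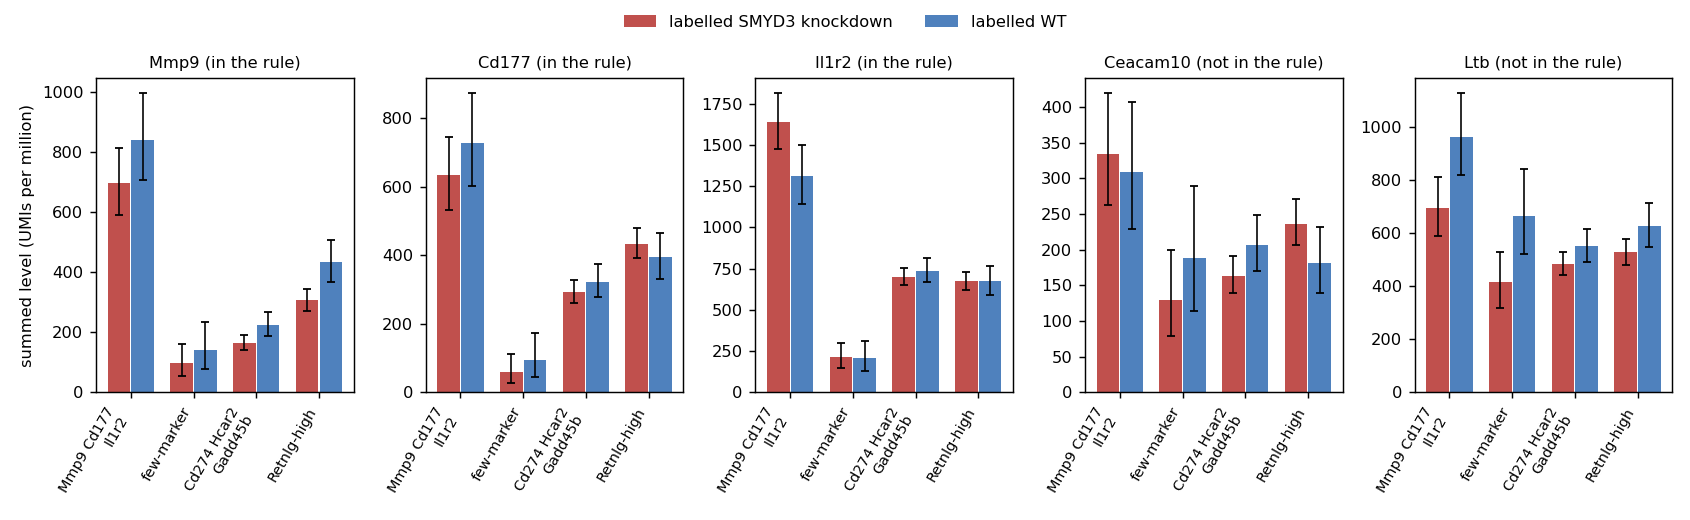
Level of the 5 given markers in the 4 neutrophil classes, in CPM, with the library labelled SMYD3 knockdown in red and the library labelled WT in blue; lines are exact 95% Poisson intervals. Mmp9, Cd177 and Il1r2 chose the cells, whereas Ceacam10 (335 and 309 CPM) and Ltb (696 and 964 CPM) did not.

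Shares of cells with a UMI gave a like order when every cell was thinned to 500 UMIs. After thinning, Ceacam10 was found in 14.3% (9.37 to 20.5) of the Mmp9 Cd177 Il1r2 neutrophils in the knockdown-labelled library and 15.0% (9.14 to 22.7) in the WT-labelled library, against 8.43% and 6.21% of the other gate neutrophils. Unthinned, the shares were 29.8% and 29.2%, against 18.0% and 17.8%, at median depths of 1278 and 1295 UMIs against 1407.5 and 1314 UMIs. Ltb was found after thinning in 22.0% (16 to 29.1) and 35.8% (27.3 to 45.1), against 17.2% and 18.3%. As a view of free RNA, 3923 and 3887 cells with at least 20 C1q UMIs, which should lack the markers, were treated in the same way. A thinned UMI of Mmp9, Cd177 or Il1r2 was found in 0.357% and 0.334% of those C1q-high cells, against 42.4% and 44.6% of gate neutrophils. The C1q-high cells had median depths of 13891 and 12388 UMIs, against 1389 and 1311 UMIs in the gate, so thinning diluted free RNA more in them and their share is a low estimate of its level in neutrophils. Ceacam10 in the C1q-high cells was at 0.325 and 0.400 CPM. Ltb was also a gene of cells with at least 3 UMIs of Cd3 genes, at 916 and 659 CPM in 91 and 117 cells. The Mmp9 Cd177 Il1r2 neutrophils had 9 and 1 UMIs of the whole T cell list. What share of their Ltb came from free RNA was not tested.

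The values on both sides of the limit are given for the cells with a sum of 2, just inside it, and those with a sum of 1, just outside it. Ceacam10 was at 180 and 270 CPM in the 51 and 34 cells just inside, and at 171 and 204 CPM in the 57 and 47 cells just outside. Ltb was at 965 and 742 CPM just inside and at 270 and 612 CPM just outside. In cells with a sum of at least 3, Ceacam10 was at 393 and 324 CPM and Ltb at 595 and 1048 CPM.

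Cells with a UMI of Cd177, the neighbour of Ceacam10, held more Ceacam10, a pattern noticed in these values. In the 75 Mmp9 Cd177 Il1r2 neutrophils of the knockdown-labelled library with a Cd177 UMI, Ceacam10 was at 445 CPM (328 to 590), against 232 CPM (153 to 338) in the 93 without one. In the WT-labelled library it was at 492 CPM (350 to 672) in 57 cells with a Cd177 UMI and 133 CPM (66.6 to 239) in 63 cells without one. The same order was found in the other gate neutrophils, with 301 CPM (262 to 344) against 137 CPM (118 to 159) in the knockdown-labelled library and 260 CPM (208 to 321) against 165 CPM (136 to 198) in the WT-labelled library. Cells with a Cd177 UMI were deeper, with medians of 1386 and 1361 UMIs against 1197 and 1287 UMIs among the Mmp9 Cd177 Il1r2 neutrophils. After thinning, Ceacam10 was found in 18.7% and 12.3% of those with a Cd177 UMI and in 8.60% and 9.52% of those without. An Il1r2 UMI went with a like difference in the other gate neutrophils, with Ceacam10 at 240 and 238 CPM in cells with one and 141 and 147 CPM in cells without. So did an Mmp9 UMI there, with Ceacam10 at 310 and 246 CPM in cells with one and 156 and 175 CPM in cells without. In the other gate neutrophils the order was thus not particular to Cd177. Among the Mmp9 Cd177 Il1r2 neutrophils, Ceacam10 was at 339 and 265 CPM in cells with an Il1r2 UMI and 299 and 535 CPM in the 20 and 20 cells without one. It was at 301 and 278 CPM in those with an Mmp9 UMI and 375 and 348 CPM in those without, with overlapping intervals. In these cells the splits are not independent, since a cell without a UMI of 1 marker had to hold UMIs of the others. Ltb had no common order among them, at 482 CPM with and 895 CPM without a Cd177 UMI in the knockdown-labelled library, and 1160 CPM with and 776 CPM without in the WT-labelled library. In the other gate neutrophils, Ltb was at 681 and 752 CPM with a Cd177 UMI and 402 and 510 CPM without. Cells of 1 library are not replicates, and no test was made.

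**Figure D3:**
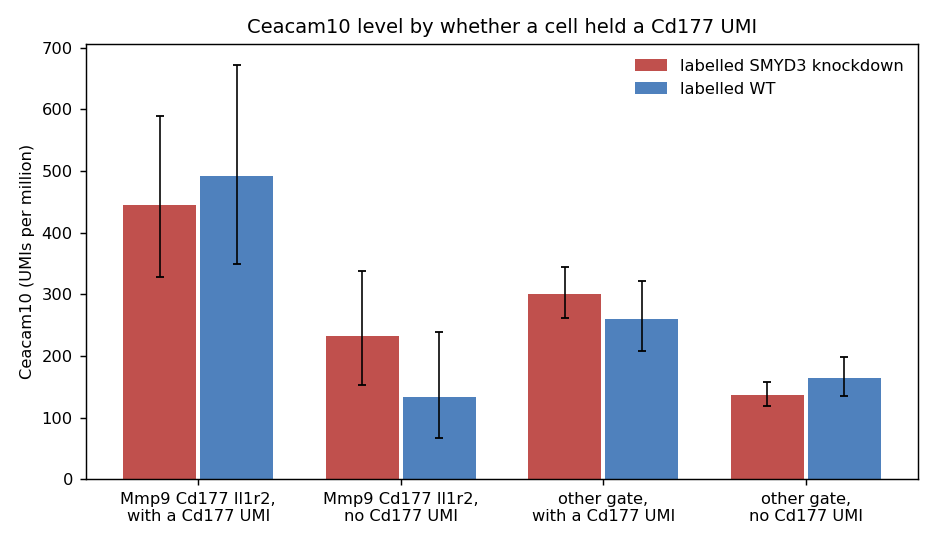
Ceacam10 level, in CPM, in cells with and without a Cd177 UMI, for the Mmp9 Cd177 Il1r2 neutrophils (left pair of groups) and the other gate neutrophils (right pair). Red bars are the library labelled SMYD3 knockdown, blue bars the library labelled WT, and lines exact 95% Poisson intervals. The cells with a Cd177 UMI are higher in both libraries, at 445 and 492 CPM against 232 and 133 CPM in the left pair.

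Across genes, the Mmp9 Cd177 Il1r2 neutrophils were set against the other gate neutrophils within each library. Of 1341 genes measured in both libraries (the higher class had 50 CPM or more and 30 UMIs or more, genes of the rule left out), 43 (3.21%) were at least 1.5-fold higher and 178 (13.3%) at least 1.5-fold lower in both. The rule used these cells, so nothing is read from the counts. A gene needed a higher CPM to reach 30 UMIs in these few cells than in the rest of the gate. At 200 CPM in the higher class, 40 (5.31%) were higher and 60 (7.97%) lower of 753. The median gene lay at -0.07 in the knockdown-labelled library and -0.17 in the WT-labelled library on the scale of log2(CPM + 5) differences. Scaling by the median ratio of genes instead of total UMIs gave 82 higher and 131 lower. Set only against the few-marker neutrophils, 29 (3.91%) were higher and 40 (5.39%) lower of 742. Among the lower genes were Fn1, Vim and Lyz2, of which single few-marker cells held many UMIs. For Fn1, 1 cell held 35 of the class's 72 UMIs in the knockdown-labelled library and 1 cell held 39 of 75 in the WT-labelled library. For Lyz2 the highest counts in 1 cell were 144 and 194 UMIs.

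The 12 genes furthest above the rest of the gate included several receptors and adaptors of myeloid cells. Scimp, a membrane adaptor of Toll-like receptor signalling, had the highest ratio, with 459 CPM (375 to 557) in the Mmp9 Cd177 Il1r2 neutrophils of the knockdown-labelled library and 414 CPM (321 to 526) in those of the WT-labelled library, against 95 and 115 CPM in the other gate neutrophils. Clec4n, which encodes the fungal receptor Dectin-2, was at 2021 and 1335 CPM, against 832 and 697 CPM. Clec5a, a lectin receptor of myeloid cells, was at 357 and 315 CPM, against 142 and 157 CPM, but in cells with no C1q UMI its log2 difference in the knockdown-labelled library was -0.0042. Ltb4r1, the receptor for the neutrophil attractant leukotriene B4, was at 277 and 229 CPM, against 109 and 114 CPM. Tnfrsf13b, which encodes the BAFF and APRIL receptor TACI, was at 419 and 457 CPM, against 193 and 212 CPM, and in cells with no C1q UMI its log2 difference in the knockdown-labelled library was -0.46, the opposite direction. Klhl6, an adaptor of a ubiquitin ligase, was at 464 and 692 CPM, against 155 and 245 CPM.

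The remaining genes furthest above the rest of the gate were a mixed group. Txnip, which encodes an inhibitor of thioredoxin and of glucose uptake, was at 3212 CPM (2982 to 3455) and 3449 CPM (3168 to 3747), against 1187 and 1636 CPM, and was found in 146 of 168 and 108 of 120 cells. The actin regulator Enah was at 286 and 272 CPM, against 105 and 103 CPM, and smooth muscle actin, Acta2, at 419 and 309 CPM, against 164 and 149 CPM. Acta2 was at 8.76 and 16.9 CPM in kept cells outside the gate. Degs1, a desaturase of ceramide synthesis, was at 344 and 272 CPM, against 116 and 125 CPM. Naaa, an acid amidase of lipid amides, was at 268 and 229 CPM, against 105 and 101 CPM. Leprotl1 was at 210 and 309 CPM, against 103 and 130 CPM. Naaa (324 and 322 CPM) was also high in kept cells outside the gate, most of which held C1q UMIs. C1qa itself was at 593 and 797 CPM in the Mmp9 Cd177 Il1r2 neutrophils and 554 and 752 CPM in the other gate neutrophils. What share of Naaa came from free RNA was not tested.

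The genes furthest below the rest of the gate were, apart from Hilpda, hardly detected in the Mmp9 Cd177 Il1r2 neutrophils. Ciart, a circadian repressor, had 3 UMIs in those of the knockdown-labelled library and 1 in those of the WT-labelled library, against 340 UMIs (166 CPM) and 169 UMIs (167 CPM) in the other gate neutrophils. F3, which encodes tissue factor, the starter of coagulation, had 5 and 0 UMIs, against 127 and 106 CPM. Mapk6, an atypical MAP kinase, had 1 and 2 UMIs, against 139 and 115 CPM. Hilpda, a lipid droplet protein induced by hypoxia, was at 219 CPM (49 UMIs) and 130 CPM (21 UMIs), against 940 and 794 CPM. The highest Hilpda count in 1 such cell was 21 UMIs in the knockdown-labelled library. Rhov, Impact, Syne1 and Fnip2 had 1 to 6 UMIs in each library. Atp6v1c1 and Atp6v1h, subunits of the proton pump of lysosomes, had 3 UMIs each in each library. The few-marker neutrophils, which met the same Retnlg and Cd274 limits, were also low in F3 (25.9 and 18.8 CPM) and Hilpda (227 and 131 CPM). Other genes were not as low in them. Ciart was at 90.6 and 84.5 CPM in the few-marker class, against 13.4 and 6.18 CPM in the Mmp9 Cd177 Il1r2 neutrophils. Mapk6 was at 110 and 75.1 CPM, against 4.46 and 12.4 CPM.

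**Figure D4:**
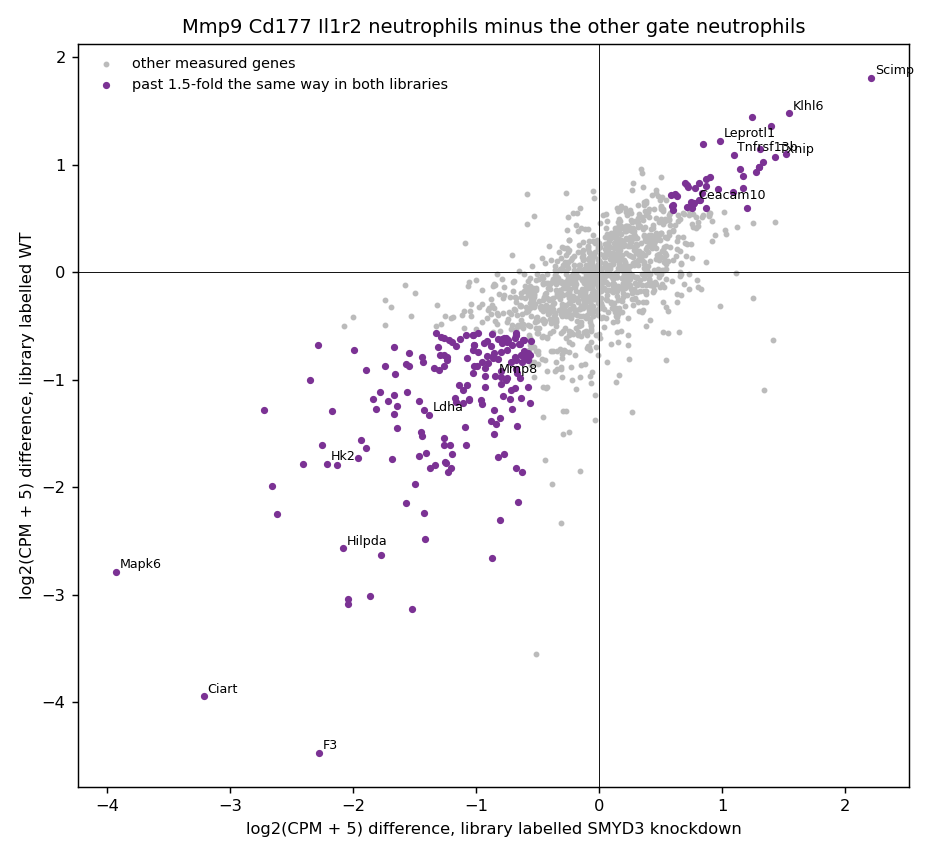
Difference between the Mmp9 Cd177 Il1r2 neutrophils and the other gate neutrophils for 1341 genes, as log2(CPM + 5), in the library labelled SMYD3 knockdown (horizontal axis) and the library labelled WT (vertical axis). Purple points are the 43 genes higher and 178 lower by at least 1.5-fold in both libraries. Differences of genes with few UMIs in these cells, such as Mapk6 and F3, depend on the constant of 5.

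Genes of hypoxia and glycolysis were lower in the Mmp9 Cd177 Il1r2 neutrophils. In the knockdown-labelled library 13 of 18 measured list genes were at least 1.5-fold lower and 0 higher, where 19.7% of all 1702 genes were lower and 10.6% higher. In the WT-labelled library it was 12 of 17 and 0, where 23.2% of 1659 genes were lower and 5.3% higher. The list medians were -0.80 and -0.63. Ldha, lactate dehydrogenase, was at 303 CPM in both libraries, against 799 and 766 CPM in the other gate neutrophils. Hk2, a hexokinase, was at 35.7 and 55.6 CPM, against 183 and 204 CPM, and Ero1a, an oxidase of the endoplasmic reticulum, at 156 and 204 CPM, against 508 and 516 CPM. The mitophagy receptor Bnip3 was at 93.7 and 80.3 CPM, against 230 and 285 CPM. The list was highest in the class that the Cd274, Hcar2 and Gadd45b limit left out. It summed to 3814 CPM in the Mmp9 Cd177 Il1r2 neutrophils of the knockdown-labelled library, against 4493 CPM in the few-marker class, 5546 CPM in the Retnlg-high class and 9178 CPM in the Cd274 Hcar2 Gadd45b class. In the WT-labelled library the sums were 3683, 4433, 4578 and 8290 CPM.

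Part of the interferon response list was lower as well. Of 9 measured list genes, 4 were at least 1.5-fold lower in the knockdown-labelled library (19.7% of all genes) and 5 in the WT-labelled library (23.2% of all genes), and 0 were higher in either, with medians of -0.41 and -0.68. Isg15, a ubiquitin-like protein, was at 366 and 130 CPM, against 586 and 470 CPM in the other gate neutrophils. Rsad2, which encodes the antiviral enzyme viperin, was at 125 and 49.4 CPM, against 232 and 338 CPM. Its 28 and 8 UMIs show how few molecules these values rest on. The interferon-induced chemokine Cxcl10 was at 58.0 and 74.2 CPM, against 128 and 236 CPM.

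Some genes of adhesion and chemotaxis were higher. Of 12 measured list genes, 4 were at least 1.5-fold higher in the knockdown-labelled library (10.6% of all genes) and 2 in the WT-labelled library (5.3% of all genes), with 0 lower in either and medians of 0.48 and 0.35. Fpr2, a receptor for formylated peptides, was at 513 and 532 CPM, against 300.2 and 340 CPM in the other gate neutrophils. Its relative Fpr1 was at 419 and 396 CPM, against 222 and 268 CPM. Cd47, the surface signal that restrains uptake by phagocytes, was at 745 CPM (167 UMIs) and 841 CPM (136 UMIs), against 421 and 470 CPM. Cxcr2 was part of the gate's rule. Cxcr4, the receptor that retains neutrophils in the marrow, was at 428 and 321 CPM, against 588 and 403 CPM, and did not pass 1.5-fold in either library. Ptafr, the receptor for platelet-activating factor, was at 660.2 and 692 CPM, against 940 and 951 CPM, and did not pass it either.

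Granule genes did not move as a group. Of the primary granule genes, Mpo, Elane, Ctsg and Bpi were at 0 UMIs in the Mmp9 Cd177 Il1r2 neutrophils of both libraries, and Camp and Ltf of the secondary granules had 0 and 10 UMIs in the knockdown-labelled library and 1 and 3 in the WT-labelled library. Chil3, a chitinase-like protein, was at 1387 and 1421 CPM, against 615 and 763 CPM, and Hp, haptoglobin, at 1508 and 1001 CPM, against 808 and 697 CPM. Olfm4 was lower, at 147 and 124 CPM, against 274 and 330 CPM. Mmp8 was at 321 CPM (15.5% of cells) and 290 CPM (23.3%), against 580 and 574 CPM. Mmp9, a gene of the rule, had the opposite order. Mmp8 was at 278 and 535 CPM in the few-marker class, 152 and 207 CPM in the Cd274 Hcar2 Gadd45b class and 1098 and 1159 CPM in the Retnlg-high class. The class with the highest Mmp8 level was thus the one that the Retnlg limit left out.

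Among the cytokine genes, Il1b was at 11612 and 12639 CPM, against 14768 and 12643 CPM in the other gate neutrophils, ratios of 0.79 and 1.00, and Il1rn, the interleukin-1 receptor antagonist, at 754 and 785 CPM, against 953 and 890 CPM. Cxcl2, a neutrophil attractant, was at 12875 and 17194 CPM, against 18411 and 18135 CPM. Of the measured interleukin-1 family genes outside the rule, 2 of 9 were at least 1.5-fold higher and 3 lower in the knockdown-labelled library (10.6% and 19.7% of all genes), and 0 of 8 were higher or lower in the WT-labelled library (5.3% and 23.2% of all genes). The largest of these differences was that of Il1a, with 4 UMIs (17.8 CPM) and 10 UMIs (61.8 CPM), against 86.3 and 84.1 CPM. Among the tumour neutrophil and suppressor genes, Cstb, cystatin B, was at 406 and 587 CPM, against 1348 and 1356 CPM. Among the transcription factors, Cebpd was at 633 and 723 CPM, against 410 and 435 CPM. Of the heat stress list, Hsp90aa1 was at 254 and 290 CPM, against 924 and 665 CPM. Pooled mitochondrial UMIs made up 2.04% and 2.43% of these cells' UMIs and 1.42% and 1.83% of those of the other gate neutrophils, whereas the median cell had 0.631% and 0.985%, against 0.633% and 0.917%.

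Between the labels, the Mmp9 Cd177 Il1r2 neutrophils held 224159 UMIs in the knockdown-labelled library and 161804 UMIs in the WT-labelled library. Of 1081 measured genes, 107 (9.9%) were at least 1.5-fold higher and 75 (6.94%) at least 1.5-fold lower in the knockdown-labelled library, and the counting interval of the ratio left out 1 for 64 and 60 of them. In the other gate neutrophils, which held more UMIs, 43 (1.74%) were higher and 144 (5.82%) lower of 2475. Scaling by the median ratio of genes gave 91 higher and 99 lower in the Mmp9 Cd177 Il1r2 neutrophils, so the split between higher and lower depended on the scaling. Each count describes these libraries and is not a count of changed genes.

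Of the 5 given markers, none passed 1.5-fold between the labels. Il1r2 was 1.25 times as high (1.05 to 1.49) in the knockdown-labelled library as in the WT-labelled library, and Ltb 0.722 times (0.574 to 0.907). The ratios of Mmp9 (0.828, 0.654 to 1.05), Cd177 (0.869, 0.676 to 1.12) and Ceacam10 (1.08, 0.747 to 1.58) had counting intervals that included 1. In the other gate neutrophils the ratios were 0.990 for Il1r2, 0.845 for Ltb, 0.769 for Mmp9, 1.04 for Cd177 and 0.988 for Ceacam10.

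Of the 10 genes furthest above WT, 8 encode secretory products of the exocrine pancreas. Ctrb1, chymotrypsinogen B, had 110 UMIs (491 CPM) in the Mmp9 Cd177 Il1r2 neutrophils of the knockdown-labelled library and 0 in those of the WT-labelled library, at least 26.5-fold higher when the WT label is set at 3 UMIs. The trypsinogen genes Prss2, Try5 and Try4, whose reads may be shared between them, had 93, 87 and 84 UMIs against 0. Pancreatic lipase, Pnlip, had 63 UMIs against 0, the elastase gene Cela3b 40 against 0, Cpa1, a carboxypeptidase, 32 against 0, and colipase, Clps, 42 against 1. The same genes were found throughout the knockdown-labelled library, with Ctrb1 at 548 CPM in its other gate neutrophils and 532 CPM in its kept cells outside the gate. The pancreatic list made up 2984 CPM in the Mmp9 Cd177 Il1r2 neutrophils, 3425 CPM in the few-marker class, 3148 CPM in the Cd274 Hcar2 Gadd45b class and 2285 CPM in the Retnlg-high class of the knockdown-labelled library. It made up 9 to 19 CPM in the classes of the WT-labelled library.

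The other 2 genes were Nt5e and Emd. Nt5e, which encodes the ectonucleotidase CD73, had 33 UMIs in 16 cells of the knockdown-labelled library and 5 UMIs in 5 cells of the WT-labelled library, a ratio of 4.76 (1.85 to 15.6), and a ratio of 2.26 in the other gate neutrophils. Emd, which encodes the nuclear envelope protein emerin, had 36 UMIs in 30 cells against 7 UMIs in 7 cells, a ratio of 3.71 (1.63 to 9.89). In the other gate neutrophils the ratio of Emd was 0.617, in the opposite direction. Among listed genes, Isg15 was at 366 CPM against 130 CPM, a ratio of 2.82 (1.73 to 4.79), beside 1.25 in the other gate neutrophils. The heat shock genes Hspa1a and Hspa1b, near-identical copies, had ratios of 2.84 (1.62 to 5.27) and 2.60 (1.26 to 5.87), beside 1.49 and 1.41. Spp1, osteopontin, was at 995 CPM against 532 CPM (ratio 1.87, 1.45 to 2.43), and Clec4n at 2021 CPM against 1335 CPM (1.51, 1.28 to 1.79). Hp had a ratio of 1.51 (1.25 to 1.83) and the granule protease activator Ctsc one of 1.98 (1.15 to 3.54).

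The gene furthest below WT was Cebpb, a transcription factor of myeloid cells that drives emergency granulopoiesis. It had 248 UMIs, or 1106 CPM, in the Mmp9 Cd177 Il1r2 neutrophils of the knockdown-labelled library and 738 UMIs, or 4561 CPM, in those of the WT-labelled library, a ratio of 0.243 (0.209 to 0.280). It was found in 118 of 168 cells against 116 of 120. The ratio was 0.264 in the other gate neutrophils and 0.257 in kept cells outside the gate, so the difference between the libraries was not limited to these neutrophils. Traf1, an adaptor of TNF receptors, had 14 UMIs in 8 cells against 37 UMIs in 14 cells, a ratio of 0.273 (0.136 to 0.517), beside 0.703 in the other gate neutrophils. Basp1, a membrane protein, was at 178 CPM against 606 CPM (0.295, 0.199 to 0.430), beside 0.493. Snx20, a sorting nexin, was at 75.8 CPM against 192 CPM (0.396, 0.206 to 0.738), beside 0.430. The phosphatase Dusp2 had 18 UMIs against 33 and the SUMO protease Senp2 16 against 32. Atp5l, Klhl24, Ms4a6c and Susd6 had ratios of 0.338, 0.443, 0.451 and 0.459.

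Chemokine and cytokine transcripts were among the listed genes that were lower in the knockdown-labelled library. Ccl8, a chemokine of macrophages, was at 616 CPM against 1150 CPM (ratio 0.536, 0.427 to 0.671), beside 0.439 in the other gate neutrophils. C1qc, which the gate limits, was at 245 CPM against 402 CPM, and the whole monocyte and macrophage list at 2926 CPM against 3918 CPM. Without the genes of the rule that list was at 1686 CPM against 2274 CPM. Cxcl3 was at 272 CPM against 562 CPM (0.484, 0.344 to 0.677), beside 0.928, and Tnf at 138 CPM against 235 CPM (0.589, 0.354 to 0.972), beside 0.906. Clec4e, the lectin receptor Mincle, was at 781 CPM against 1391 CPM (0.561, 0.458 to 0.687) and Wfdc17 at 3841 CPM against 6211 CPM (0.618, 0.564 to 0.678). The oxygen sensor Egln3 was at 259 CPM against 420 CPM (0.616, 0.426 to 0.887) and mt-Co1 at 517 CPM against 847 CPM. Over all lists, 121 of 285 genes found were measured, and 16 were higher and 9 lower by at least 1.5-fold, 8 of the 16 being pancreatic genes, where 9.9% and 6.94% of all measured genes were higher and lower.

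**Figure D5:**
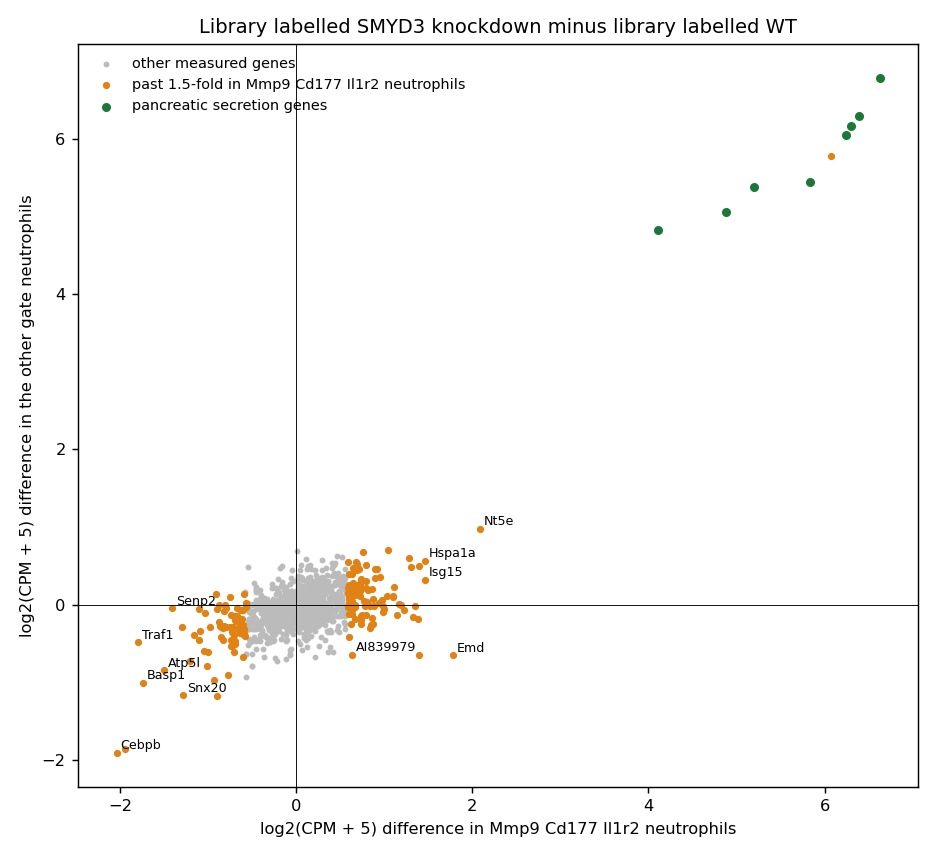
Difference between the library labelled SMYD3 knockdown and the library labelled WT, as log2(CPM + 5), in the Mmp9 Cd177 Il1r2 neutrophils (horizontal axis) and in the other gate neutrophils (vertical axis), for 1081 genes. Orange points are past 1.5-fold in the Mmp9 Cd177 Il1r2 neutrophils and green points are pancreatic secretion genes. Cebpb is low on both axes, whereas Emd lies on opposite sides.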

How the data were processed

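The members and gene lists were chosen with earlier results of these data known. The authors deposited whole UMI counts per gene and cell for both libraries, made with Cell Ranger 7.1.0 per the file headers and mm10 per the submitters' processing notes; which gene annotation they used the sources used here do not say. Barcodes were assigned to libraries through the deposited batch table, by sequence. Cells needed 500 UMIs, 200 genes and at most 20% mitochondrial UMIs (38 and 0, 463 and 395, and 620 and 582 barcodes failed each limit, knockdown label first). No doublets were removed. Scrublet's own threshold called 0 cells; as an alternative its highest scores, 723 and 603 cells, were left out.

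UMI counts were summed per class and library and given as CPM of the class total (Python 3.11.15, numpy 2.4.6, scipy 1.17.1, pandas 2.3.3, scanpy 1.11.5, matplotlib 3.10.9). Intervals are exact Poisson, Clopper-Pearson, Newcombe (differences of shares) or conditional binomial (ratios), at 95%. UMIs summed over a class are not independent samples of mice, so the intervals cover counting error only. Log2 differences used a constant of 5 and ratios none. A gene counted as measured at 50 CPM or more and 30 UMIs or more in the higher group. Named genes were the 5 markers, the 12 furthest either way against the gate, the 10 furthest either way between labels, and up to 4 per list; the ranked genes left out mitochondrial, ribosomal protein, haemoglobin, immunoglobulin and T cell receptor genes, Xist, Tsix, Y-linked genes and Gm, Rik or ID-only symbols. The Ceacam10 split by Cd177, Ly6g, Mmp8 and other listed genes beyond 4 were named with their values seen. Alternatives covered limits, depth, doublets, scaling, filters and macrophage transcripts. The interval and fold code was checked on simulated counts. Some genes that met the naming rule are not reported here.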

Additional observations from a re-analysis of the deposited data

Results flagged for a closer look

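Emd and AI839979 were past 1.5-fold in opposite directions between the labels in the Mmp9 Cd177 Il1r2 neutrophils and in the other gate neutrophils, and the difference between the classes was not tested. Emd was 3.71 times as high in the knockdown-labelled library in the Mmp9 Cd177 Il1r2 neutrophils (36 against 7 UMIs, 161 against 43.3 CPM) and 0.617 times in the other gate neutrophils (124 against 99 UMIs, 60.4 against 97.9 CPM). AI839979 was 1.58 times as high in the Mmp9 Cd177 Il1r2 neutrophils (35 against 16 UMIs, 156 against 98.9 CPM) and 0.617 times in the other gate neutrophils (114 against 91 UMIs, 55.6 against 90.0 CPM).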

How the results depend on the processing

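No paired analysis was possible because each label had 1 library and no result comes from a test. The lower share of the gate in the knockdown-labelled library kept its sign under all but 1 setting; among cells with no C1q UMI, which left 39 and 13 Mmp9 Cd177 Il1r2 neutrophils, the difference was 1.89 points (-6.66 to 8.77), and without the Retnlg limit its interval (-5.47 to 1.23) included 0. The difference in the share of kept cells was 1.01 points without the Retnlg limit and 1.25 points without the Cd274, Hcar2 and Gadd45b limit, and at a marker sum of at least 3 it was 0.240 points with an interval (-0.0673 to 0.547) that included 0. Genes past 1.5-fold between the labels numbered 292 and 288 without those limits, 75 with no C1q UMI, 5501 with no low-count filter, 65 at 100 CPM and 60 UMIs and 85 with cells thinned to 500 UMIs, against 182 as reported. Genes past 1.5-fold against the other gate neutrophils numbered 66 with no C1q UMI, 5443 with no filter and 135 at 100 CPM and 60 UMIs, against 221. With no C1q UMI, 3 were higher and 63 lower, against 43 and 178 as reported. The Mmp9 Cd177 Il1r2 neutrophils then held 52050 and 17469 UMIs, so a gene needed a higher CPM in them to reach 30 UMIs. Alternatives chosen after seeing the data gave 100 at 200 CPM and 69 (29, 3.91%, higher and 40, 5.39%, lower) against the few-marker neutrophils alone. Of 1033 values of named genes, 3 changed sign from a reported difference of at least 1.5-fold, all for the knockdown-labelled library against the other gate neutrophils: Syne1 without the Retnlg limit (log2 0.079), and Clec5a (-0.0042) and Tnfrsf13b (-0.46) with no C1q UMI. Sign changes of smaller reported differences were not counted. A further 111 moved by at least 1.5-fold from the reported value and 919 did not. Another 137 fell under the low-count limit and gave no value. With 224159 and 161804 UMIs in these cells, genes under about 30 UMIs could not be compared.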

Other observations

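Some gene families not on the lists were found, after their values were seen, to differ between the Mmp9 Cd177 Il1r2 neutrophils and the other gate neutrophils in both libraries. Beside Txnip, the alpha-arrestin genes Arrdc3 (214 and 247 CPM, against 126 and 155 CPM) and Arrdc4 (317 and 241 CPM, against 140 and 122 CPM) were higher, with the knockdown-labelled library given first. The anti-apoptotic Bcl2a1 genes were higher as well, Bcl2a1a with 1057 and 1026 CPM against 563 and 552 CPM, Bcl2a1b with 1432 and 1378 CPM against 801 and 825 CPM and Bcl2a1d with 165 and 216 CPM against 81.9 and 125 CPM; they are near-identical copies, so the split of reads among them is uncertain. Of 13 genes for the V1 part of the proton pump of lysosomes, 8 were measured in both libraries. Of those, 4 were at least 1.5-fold lower in both, where 13.3% of all 1341 genes were. The 4 included Atp6v1c1 and Atp6v1h, already named among the genes furthest below the rest of the gate. Atp6v1f, Atp6v1g1, Atp6v1b2 and Atp6v1e1 had ratios of 0.91, 0.83, 0.78 and 0.88 in the knockdown-labelled library. In the WT-labelled library their ratios were 0.87, 0.95, 0.92 and 1.14. Atp6v1a, the catalytic subunit, was at 58.0 and 74.2 CPM against 270.5 and 269 CPM.

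The few-marker neutrophils, which met the same limits but for the 3 markers, held cells of up to 6244 and 7373 UMIs, whereas no Mmp9 Cd177 Il1r2 neutrophil exceeded 2375 and 2405 UMIs. The median few-marker cell was nevertheless shallower, with 1029 and 1060.5 UMIs against 1278 and 1295 UMIs. The part of depth in the split between these classes was not tested.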
